A study of Mus musculus with 6 samples.

Results

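Mertk, Axl, Tyro3, Gas6, Pros1, Megf10, Gulp1, Itgav, Itgb5 and Mfge8 were examined in every cell class of single-nucleus RNA libraries from mouse hippocampus. These 10 genes were chosen by name as receptors, bridging ligands and an adaptor of engulfment, and all 10 were found among the 33457 features of the matrices. Each of the 6 groups was 1 library of 9-month-old mice of strain B6, and every group carried floxed human APOE. The group FE3 was APOE3 fl/fl and the group FE4 was APOE4 fl/fl, both with the treatment given as none. The groups TAFE3_oil and TAFE3_tam carried P301S tau, floxed APOE3 and a Cre labelled Aldh1la1CreERT, and received oil or tamoxifen. The groups TAFE4_oil and TAFE4_tam were the same with floxed APOE4. The tau mice therefore differed from FE3 and FE4 in tau, Cre and oil together, and these cannot be told apart. How many animals entered each library, and which cells the Cre acts in, are not given in the sources used here.

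Engulfment of dying cells, synapses and debris begins when a receptor reads phosphatidylserine on the target surface. Tyro3, Axl and Mertk are receptor tyrosine kinases, known together as TAM receptors, which do not bind phosphatidylserine themselves but reach it through the bridging proteins GAS6 and protein S. A parallel route runs through the bridging protein MFG-E8 and the integrin αvβ5, and MEGF10 is a receptor that works with the adaptor GULP1. In brain, MERTK and MEGF10 are known for synapse uptake by astrocytes, and MERTK and AXL for the clearance of dying cells by microglia.

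The libraries held 14762 to 18171 barcodes and 39050503 to 49083723 UMIs (unique molecular identifiers, each counting 1 captured transcript), and 9330 to 13993 nuclei a library were used. Astrocytes were 1.94% to 6.51% of nuclei (242 to 911 nuclei) and microglia 1.29% to 12.2% (122 to 1518 nuclei), each named from markers that did not include the 10 genes. Levels are given as CPM, the UMIs of a gene as counts per 1000000 UMIs summed over the nuclei of a class in a library, always in the order FE3, FE4, TAFE3_oil, TAFE3_tam, TAFE4_oil, TAFE4_tam. These sums rested on 468393 to 1847773 UMIs in astrocytes and 159222 to 1495849 in microglia, so microglial values of FE3, with the fewest nuclei, were the least precise. Nuclei also carried RNA of other cells. A microglial subcluster led by neuronal genes such as Grin2a and Kcnip4 had a median doublet score of 0.21. It gave 72284 of the 159222 microglial UMIs in FE3 and 92846 of 469926 in FE4. An astrocyte subcluster, also led by Grin2a and Kcnip4, had a median doublet score of 0.22. This astrocyte subcluster gave 172601 of 971159 astrocyte UMIs in FE3 and 460286 of 1847773 in FE4. In the oil libraries it gave 56730 of 731445 in TAFE3_oil and 69138 of 669926 in TAFE4_oil. The excitatory neuron markers stood in microglia at a median of 59.1% to 75.4% of their level in excitatory neurons, and in astrocytes at 34.2% to 52.8%. Human APOE, the floxed gene, was at 12038, 12899, 17010.2, 5296, 18951 and 5587 CPM in astrocytes and was lower in both tamoxifen libraries than in the oil libraries. In microglia it was at 1916, 1800.3, 18488, 20727, 29984 and 21548 CPM. Pairs of libraries shared 65 to 83 cell barcodes.

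The members fell into an astrocyte side, a microglia side and a group without a called difference. To show the promoters of members that stood apart between classes or libraries, 250 bases upstream of the RefSeq gene start are given for 3 members, from the build GRCm38.p6, 5′ to 3′ on the strand of the gene, with the Sp1 box (GGGCGG on either strand) in capitals. Mfge8 was the astrocyte-side member with the most UMIs, Itgb5 was the receptor subunit with the largest microglial excess, and Axl was the receptor that differed most between tau and non-tau microglia.
Mfge8, chr7:79149061-79149310, minus strand: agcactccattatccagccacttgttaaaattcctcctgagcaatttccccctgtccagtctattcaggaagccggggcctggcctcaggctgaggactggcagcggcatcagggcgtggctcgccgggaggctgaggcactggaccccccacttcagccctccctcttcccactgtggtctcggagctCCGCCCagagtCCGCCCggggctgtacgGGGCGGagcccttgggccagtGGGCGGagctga
Itgb5, chr16:33829415-33829664, plus strand: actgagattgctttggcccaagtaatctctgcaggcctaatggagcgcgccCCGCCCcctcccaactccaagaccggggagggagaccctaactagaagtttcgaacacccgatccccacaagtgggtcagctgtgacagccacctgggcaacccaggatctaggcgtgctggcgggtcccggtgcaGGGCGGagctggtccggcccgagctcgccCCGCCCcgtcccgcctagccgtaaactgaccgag
Axl, chr7:25788734-25788983, minus strand: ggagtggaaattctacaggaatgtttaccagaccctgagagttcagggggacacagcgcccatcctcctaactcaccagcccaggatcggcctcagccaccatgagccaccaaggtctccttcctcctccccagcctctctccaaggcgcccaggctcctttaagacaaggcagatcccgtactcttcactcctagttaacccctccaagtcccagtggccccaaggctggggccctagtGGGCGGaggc
RefSeq entries were searched for 9 of the 10 members. The Sp1 box was in 8 of those 9 and in 32.7% of all 32851 promoter windows of that length, with 4 copies in Mfge8, 3 in Itgb5 and 1 in Axl. The core of the PU.1 motif was in 1 of the 9, upstream of Itgav, and in 2.44% of all windows. The AP-1 motif (TGANTCA) was in 0 of the 9 and in 6.75% of all windows. The interferon-stimulated response element core was likewise in 0 of the 9, against 2.98% of all windows. The windows of Mfge8 and Itgb5, each 65.2% G and C, held the same box, and the median over all windows was 52.4% G and C. A match describes these letters and does not show that a factor binds there.

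**Figure D1:**
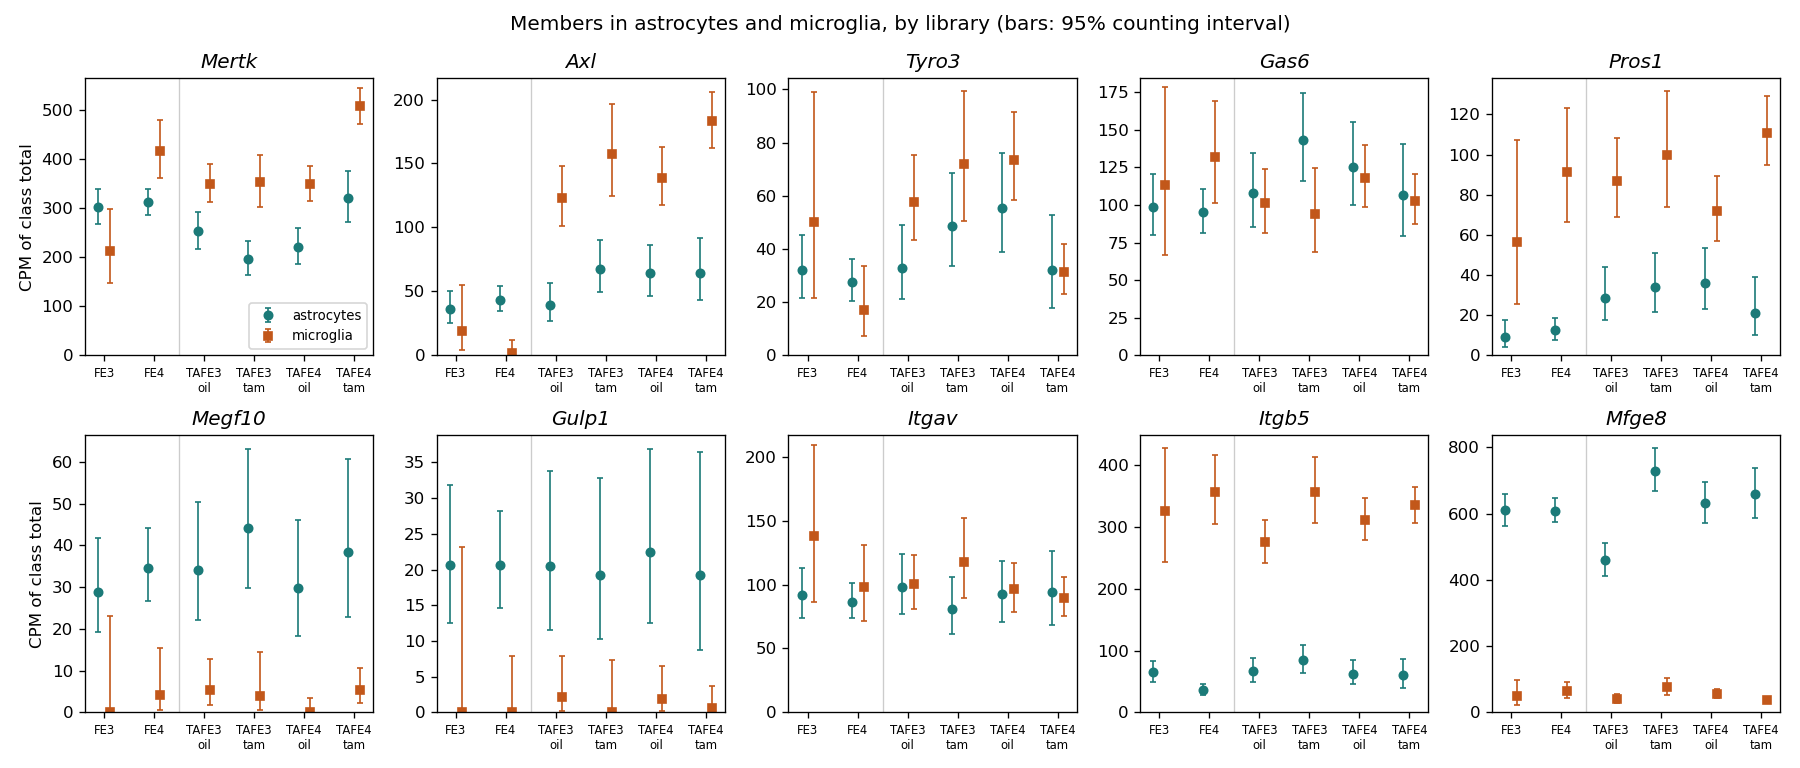
Level of each of the 10 genes in CPM (vertical axes, linear, starting at 0) in astrocytes and microglia of the 6 libraries (horizontal axes); points are the summed level of a class in a library and bars the 95% interval of counting error. Mfge8, Megf10 and Gulp1 lie higher in astrocytes and Itgb5 and Pros1 higher in microglia in 6 of 6 libraries, and Axl in microglia is below 20 CPM in FE3 and FE4 and above 120 CPM in the 4 tau libraries.

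Astrocytes and microglia differed in 7 of the 10 genes. The comparison used the 12 sums of both classes in the 6 libraries, with the library as a block, in edgeR's quasi-likelihood test with Benjamini-Hochberg adjustment over 9311 genes. Of the 10 members, 3 were higher in astrocytes and 4 in microglia at an adjusted p under 0.05. Of all genes tested, 47.6% were called, 23.3% higher in astrocytes and 24.2% higher in microglia. The median log2 difference of astrocytes over microglia was −0.12 over the members and −0.02 over all genes. The 6 libraries are of 6 genotypes or treatments, so the test takes the spread of the class difference over conditions as its error.

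Mertk, the receptor kinase that binds both GAS6 and protein S, exceeded the share of every marker of the other class in 6 of 6 libraries, in both classes (gene at chr2:128698956-128802894 on the plus strand, GRCm38). Its level in astrocytes was 302, 312, 253, 196, 221 and 320.2 CPM, and in microglia 214, 417, 350.4, 353, 349 and 507 CPM. Microglia were higher in 5 libraries and astrocytes in FE3, and the ranges of the classes overlapped. The FE3 microglial sum held the neuron-led nuclei described above. In the FE3 microglial subcluster led by P2ry12, Mertk was at 399.6 CPM. The log2 difference of astrocytes over microglia was −0.32 ± 0.12 (SE) with an adjusted p of 0.0353 in edgeR. The call did not hold in DESeq2's Wald test (−0.28, adjusted p = 0.217), without the library block (edgeR adjusted p = 0.199), with nuclei of at least 1000 UMIs (0.255) or with doublets kept (0.386). In edgeR it was also lost without TAFE3_oil (adjusted p = 0.0856), TAFE3_tam (0.165), TAFE4_oil (0.143) or TAFE4_tam (0.103). In the other settings run it held, at −0.45 without FE3 (edgeR adjusted p = 0.000787) and −0.57 with no mitochondrial limit (0.00128). Without the subclusters led by genes of other cell types it was −0.40 (edgeR adjusted p = 0.00356). Over the 14 classes with at least 50 nuclei in 4 or more libraries, Mertk ran highest in microglia (median 352 CPM) and astrocytes (277 CPM), which overlapped. Pericytes or smooth muscle followed at a median of 64.2 CPM (at most 82.8 CPM), with no overlap with astrocytes. Border macrophages, not ranked, held 148 CPM in TAFE4_oil and 118 CPM in TAFE4_tam, from 9 and 8 UMIs.

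Axl, the receptor kinase with GAS6 as its main ligand, had the least even pattern over libraries (chr7:25757273-25788705, minus strand). In astrocytes it was at 36.0, 43.3, 39.6, 67.9, 64.2 and 64.0 CPM. In microglia it was at 18.8, 2.13, 123, 158, 139 and 183 CPM, where the FE3 value was 3 UMIs and the FE4 value 1 UMI. Astrocytes were therefore higher in both libraries without tau, microglia were higher in the 4 tau libraries, and the microglial values of these library sets did not overlap. The log2 difference over all 6 libraries was −0.74 ± 0.26 (SE, edgeR adjusted p = 0.021). It was −0.27 with an adjusted p of 0.816 in DESeq2's Wald test. In edgeR the call was lost without TAFE3_oil (adjusted p = 0.135), TAFE3_tam (0.0732), TAFE4_oil (0.103) or TAFE4_tam (0.116). It was also lost with no mitochondrial limit (edgeR adjusted p = 0.159) and with doublets kept (0.124). In the other settings run it held, with the largest difference without FE4 (−1.10, edgeR adjusted p = 1.08e-06). Among classes, Axl had its highest median in microglia (131 CPM), followed by pericytes or smooth muscle (87.1), fibroblasts (66.3), astrocytes (53.7) and endothelial cells (53.0). The neighbours in this order overlapped down to endothelial cells, and a gap then separated oligodendrocyte precursors at 20.1 CPM.

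Tyro3, the TAM receptor known as the neuronal one, was not called between astrocytes and microglia (chr2:119797733-119818104, plus strand). Astrocytes held 31.9, 27.6, 32.8, 48.7, 55.2 and 32 CPM of Tyro3, and microglia 50.2, 17.0, 57.7, 71.9, 73.6 and 31.4 CPM. The log2 difference was −0.21 ± 0.18 (SE, edgeR adjusted p = 0.37), with microglia higher in 4 libraries. Tyro3 was highest in oligodendrocytes (median 166 CPM), subicular or cortical neurons (130 CPM), other excitatory neurons (117 CPM) and CA1 neurons (112 CPM). In excitatory neurons it was at 64.7 to 120.1 CPM. Its level in astrocytes was 33.6% to 50.3% of that, and in microglia 26.3% to 74.3%. In 0 of 6 libraries did Tyro3 in either class exceed the highest share that any excitatory neuron marker reached there, so at this background Tyro3 of the glial nuclei themselves was not detectable.

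**Figure D2:**
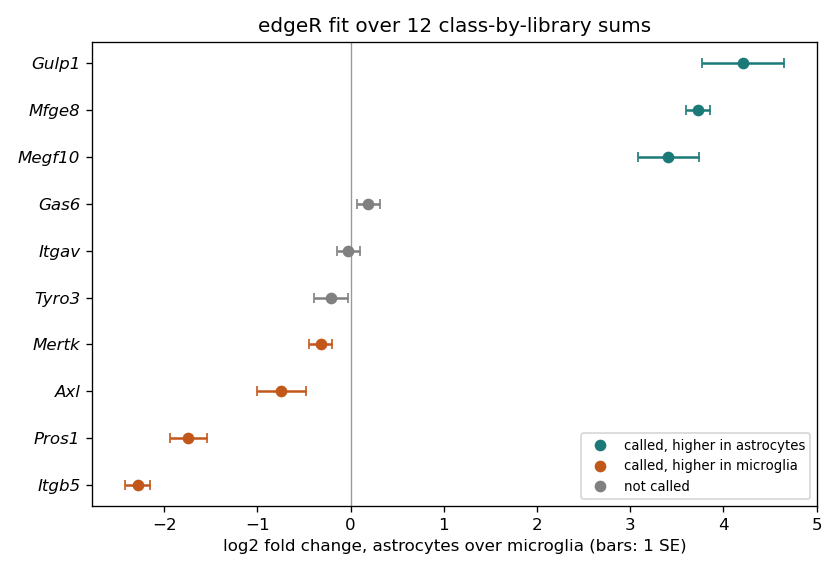
Log2 difference of astrocytes over microglia for the 10 genes (horizontal axis) from edgeR over 12 class sums of 6 libraries; points are the fitted value and bars 1 SE, with values above 0 higher in astrocytes. Gulp1, Mfge8 and Megf10 lie above 3 and Itgb5 and Pros1 below −1.5, while Tyro3, Gas6 and Itgav lie within 0.3 of 0.

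Gas6 and Pros1, the bridging ligands of the TAM receptors, differed in their source. Gas6 encodes a vitamin K-dependent ligand of all TAM receptors (chr8:13465374-13494490, minus strand). It was at 98.9, 95.2, 108, 143, 125 and 107 CPM in astrocytes and at 113, 132, 101, 93.8, 118 and 103 CPM in microglia. The classes overlapped and the log2 difference of 0.19 ± 0.13 (SE) was not called (edgeR adjusted p = 0.217), but with no mitochondrial limit it was called higher in astrocytes (0.50, edgeR adjusted p = 0.000545). Relative to all excitatory neurons pooled, Gas6 stood at 121% to 158% in astrocytes and 103% to 198% in microglia. Both were above the highest share of any excitatory neuron marker in 6 of 6 libraries. Choroid plexus epithelium was the class with the most Gas6, with a median of 353 CPM and a range of 246.5 to 416 CPM that did not overlap any other of the 14 classes ranked, which were those with at least 50 nuclei in 4 or more libraries. Endothelial cells followed at a median of 166 CPM. Inhibitory neurons (130 CPM) and other excitatory neurons (126 CPM) also ranked above microglia (108 CPM) and astrocytes (107 CPM), with overlapping ranges. Choroid plexus markers summed to 290 to 2304 CPM in microglia and 194 to 1597 CPM in astrocytes. The part of choroid plexus RNA in glial Gas6 was not tested. Border macrophages reached 50 nuclei in TAFE4_oil and TAFE4_tam only, where their Gas6 was at 346 and 459 CPM (21 and 31 UMIs), in the range of choroid plexus or above it.

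Pros1, which encodes protein S, a coagulation cofactor that activates MERTK and TYRO3, was higher in microglia than in astrocytes (chr16:62854307-62929346, plus strand). Microglia held 56.5, 91.5, 87.1, 99.8, 71.8 and 111 CPM. Astrocytes held 9.27, 12.4, 28.7, 33.9, 35.8 and 21.3 CPM, from 9 to 24 UMIs a library. The classes did not overlap, and the log2 difference of −1.74 ± 0.20 (SE) was called (edgeR adjusted p = 2.52e-08, higher in microglia in 6 of 6 libraries). Fibroblasts (median 70.3 CPM), endothelial cells (60.6 CPM) and pericytes or smooth muscle (46.3 CPM) stood between microglia at 89.3 CPM and astrocytes at 25 CPM. The ranges of fibroblasts (50.4 to 99.2 CPM) and endothelial cells (48.1 to 90.3 CPM) overlapped that of microglia. Border macrophages held 49.5 CPM in TAFE4_oil and 74.0 CPM in TAFE4_tam, from 3 and 5 UMIs. Pros1 in astrocytes was 13.6% to 49.9% of its microglial level and exceeded the share of every microglia marker, at most 15.95% in any library, in 6 of 6 libraries by its own library's values.

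Megf10 and its adaptor Gulp1 were higher in astrocytes than in microglia in 6 of 6 libraries. Megf10, the scavenger-type receptor of astrocytic synapse uptake, was at 28.8, 34.6, 34.2, 44.3, 29.9 and 38.4 CPM in astrocytes. In microglia it was at 0, 4.26, 5.44, 3.99, 0 and 5.35 CPM, from 0 to 8 UMIs a library. Its log2 difference was 3.41 ± 0.33 (SE, edgeR adjusted p = 1.15e-09, higher in astrocytes in 6 of 6 libraries). Gulp1 (chr1:44551511-44796838, plus strand), whose adaptor protein links the receptor tail to the engulfment machinery, was at 20.6, 20.6, 20.5, 19.2, 22.4 and 19.2 CPM in astrocytes, the narrowest range of the 10 genes. In microglia it was at 0, 0, 2.18, 0, 1.82 and 0.669 CPM, that is 5 UMIs in all. The fitted Gulp1 log2 difference of 4.21 ± 0.44 (SE, edgeR adjusted p = 5.13e-09) depends on the prior count, since 3 microglial sums were at 0. The microglial level relative to astrocytes was 0% to 15.9% for Megf10 and 0% to 10.6% for Gulp1. It exceeded the highest astrocyte marker of the library in 0 of 6 libraries for both, so neither was detectable in microglia above that background.

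Other classes also held Megf10 and Gulp1. Oligodendrocytes had a median Megf10 level of 32.4 CPM (24.5 to 38.6), which overlapped that of astrocytes (34.4 CPM), and fibroblasts and oligodendrocyte precursors followed at 18.4 and 15.2 CPM. Gulp1 had its highest medians in choroid plexus epithelium (50.7 CPM), fibroblasts (32.2 CPM) and pericytes or smooth muscle (21.4 CPM), ahead of astrocytes (20.5 CPM) and endothelial cells (18.7 CPM). Astrocytes therefore stood above microglia in both genes without being the class with the highest Gulp1.

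The parts of the αvβ5 route were divided between the classes. Itgav, the αv integrin subunit (chr2:83724397-83806916, plus strand), was at 91.6, 86.6, 98.4, 81.1, 92.5 and 93.9 CPM in astrocytes and at 138, 97.9, 100.1, 118, 96.3 and 89.6 CPM in microglia. Its log2 difference of −0.03 ± 0.12 (SE) was not called (edgeR adjusted p = 0.887), with CPM higher in microglia in 5 of 6 libraries. Oligodendrocyte precursors had the highest Itgav median (140 CPM, range 117.5 to 188), then microglia (99.0 CPM) and astrocytes (92.1 CPM), which overlapped, and a gap separated fibroblasts at 64.4 CPM. Pericytes or smooth muscle had a lower median (53.5 CPM), but their range of 37.0 to 94.6 CPM overlapped those of microglia and astrocytes.

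Itgb5, the β5 subunit that pairs with αv to bind MFG-E8 (chr16:33829665-33949338, plus strand), was on the microglia side. It was at 327, 358, 275, 357, 312 and 335 CPM in microglia and at 64.9, 35.7, 67.0, 84.1, 62.7 and 59.8 CPM in astrocytes. The classes were far from overlapping, and the log2 difference was −2.28 ± 0.14 (SE, edgeR adjusted p = 7.1e-14, 6 of 6 libraries). The microglial median of 331 CPM was separated from the other 13 ranked classes, with pericytes or smooth muscle next at 84.4 CPM, then fibroblasts at 71.4 and astrocytes at 63.8 CPM.

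Mfge8, the secreted bridge between phosphatidylserine and αvβ5 (chr7:79133768-79149060, minus strand), was on the astrocyte side. Astrocytes held 609.6, 609, 459, 730.2, 631 and 659.7 CPM, and microglia 50.2, 63.8, 40.3, 75.9, 55.4 and 36.1 CPM. The log2 difference was 3.73 ± 0.13 (SE, edgeR adjusted p = 1.46e-18, 6 of 6 libraries). Microglial Mfge8 was 5.47% to 10.5% of the astrocyte level. The summed astrocyte markers in microglia stood at 5.33% to 9.71% of their own level, and Mfge8 exceeded the highest of them in 0 of 6 libraries. Mfge8 was highest in astrocytes (median 620.5 CPM) and pericytes or smooth muscle (388 CPM, range 222 to 580), whose ranges overlapped. Endothelial cells and fibroblasts followed at 202 and 182 CPM, and CA2 or CA3 neurons held 10.3 CPM.

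**Figure D3:**
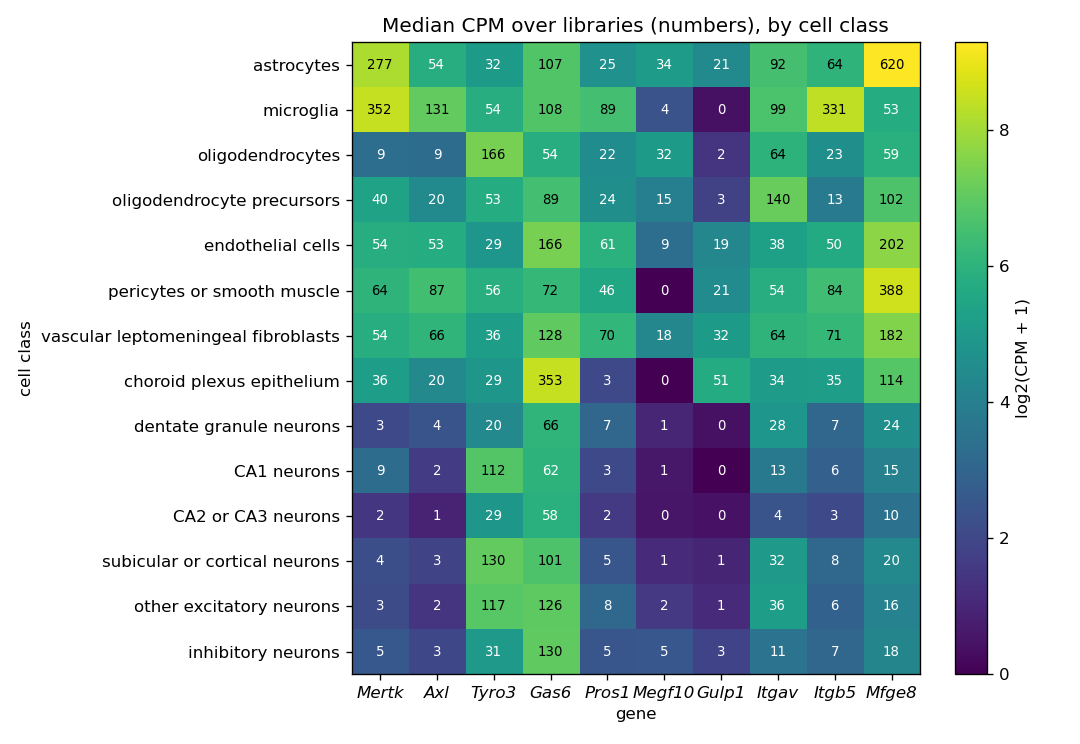
Median CPM of each of the 10 genes (columns) in each cell class (rows) over the libraries with at least 50 nuclei of the class; numbers are CPM and colour is log2(CPM + 1), brighter for higher, to be read within a gene only since UMIs are not per length. Mertk is brightest in microglia and astrocytes, Itgb5 in microglia, Mfge8 in astrocytes, Tyro3 in oligodendrocytes and Gas6 and Gulp1 in choroid plexus.

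The tau libraries with oil were set against the libraries without tau in pairs of the same APOE allele, TAFE3_oil over FE3 and TAFE4_oil over FE4. Each group was 1 library, so there was no test between groups, and the bracketed 95% intervals of the log2 ratio of CPM cover counting error only. A gene was counted where it had at least 20 UMIs in each pair and was at least 2-fold higher, or at least 2-fold lower, in both pairs. In microglia the counted gene was Axl, and in astrocytes it was Pros1. None of the 10 genes was at least 2-fold lower in both pairs in either class. In the sum of a class alone, fewer expressing nuclei and less RNA per nucleus cannot be told apart. An Axl UMI was found in 3 of 122 microglia in FE3 and 102 of 900 in TAFE3_oil. In the APOE4 pair it was found in 1 of 530 in FE4 and 135 of 1023 in TAFE4_oil. A Pros1 UMI was found in 9 of 540 astrocytes in FE3, 20 of 332 in TAFE3_oil, 21 of 911 in FE4 and 20 of 288 in TAFE4_oil. These shares also depend on the UMIs per nucleus.

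Microglial Axl was at 18.8 CPM in FE3 and 123 in TAFE3_oil, a log2 ratio of 2.71 [1.12, 5.01] that was 1.44 with nuclei of at least 1000 UMIs. In the APOE4 pair it was 2.13 CPM in FE4 and 139 in TAFE4_oil, a log2 ratio of 6.03 [3.53, 11.34], which rests on 1 UMI in FE4 and was 4.44 with that UMI set to 3. Axl was 1 of the 8 members with enough UMIs in microglia (Megf10 and Gulp1 had too few), and 2.21% of all 8172 genes were at least 2-fold higher in both pairs and 0.979% lower. The border macrophage markers moved with Axl in the same nuclei, at a summed 6.28, 10.6, 49, 39.9, 89.9 and 58.8 CPM, with 7 of 7 at 0 in some library. Most of that sum was Ms4a7, at up to 78.1 CPM, while Mrc1 reached at most 4.54 CPM and F13a1 at most 2.13 CPM. Their part in the result was not tested. In border macrophages themselves Axl was at 49.5 and 148 CPM in TAFE4_oil and TAFE4_tam.

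The other microglial members were within 2-fold or moved in 1 pair. Mertk in microglia was higher in the APOE3 pair (0.71 [0.20, 1.27]) and lower in the APOE4 pair (−0.26 [−0.51, −0.00]). The part of the neuron-led nuclei of the FE3 sum in the APOE3 ratio was not tested. Tyro3, which did not exceed the neuronal background in microglia, was at 0.20 in the APOE3 pair and at 2.11 [1.07, 3.37] in the APOE4 pair. In excitatory neurons Tyro3 was at 64.7 CPM in FE4 and 120.1 in TAFE4_oil. The part of neuronal RNA in the microglial ratio was not tested. Pros1 was at 0.62 and −0.35, and Gas6 at −0.16 in both. The median log2 ratio over the members was 0.02 and −0.18, beside 0.04 and 0.09 over all genes.

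Astrocytic Pros1 was at 28.7 CPM in TAFE3_oil against 9.27 in FE3, a log2 ratio of 1.63 [0.44, 2.94]. It was at 35.8 CPM in TAFE4_oil against 12.4 in FE4, a log2 ratio of 1.53 [0.64, 2.42]. Pros1 was 1 of 10 members, and 2.18% of all 9371 genes in astrocytes were at least 2-fold higher in both pairs and 0.544% lower. Microglial RNA in astrocytes moved in the same direction: the 15 microglia markers summed there to 307, 226, 941, 807, 1064 and 886 CPM, or 2.56%, 1.45%, 6.66%, 5.14%, 7.83% and 5.86% of their level in microglia. Their part in the Pros1 difference was not tested. The neuron-led astrocyte nuclei held Pros1 at 8.69 CPM in FE4, and their part was not tested either. With nuclei of at most 1% mitochondrial UMIs, 0 astrocyte members were past the fold in both pairs, where 11 astrocytes remained in FE3 and 13 in TAFE4_oil.

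Astrocytic Mertk was lower in TAFE3_oil than in FE3 by a log2 ratio of −0.25 [−0.53, 0.02] and in TAFE4_oil than in FE4 by −0.50 [−0.77, −0.23], below the 2-fold size in both. Mfge8 in astrocytes was at −0.41 [−0.61, −0.21] in the APOE3 pair and 0.05 in the APOE4 pair, and Itgb5 at 0.05 and 0.81 [0.22, 1.39]. Tyro3, which did not exceed the neuronal background in astrocytes either, was at 0.04 and 1.00, and Gas6 at 0.13 and 0.40. The members' median of 0.07 and 0.26 stood beside −0.01 and 0.18 over all genes. The part of the neuron-led astrocyte nuclei of FE3 and FE4 in these ratios was not tested.

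Outside the glia, Itgav differed in subicular or cortical neurons, at 43.5 CPM in TAFE3_oil against 13.9 in FE3 (log2 ratio 1.64 [1.29, 2.02]) and 57.2 in TAFE4_oil against 13.2 in FE4 (2.11 [1.80, 2.44]). That class was drawn from different clusters: the largest cluster gave 1923 and 2954 nuclei in the tau libraries and 169 and 114 in those without tau.

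**Figure D4:**
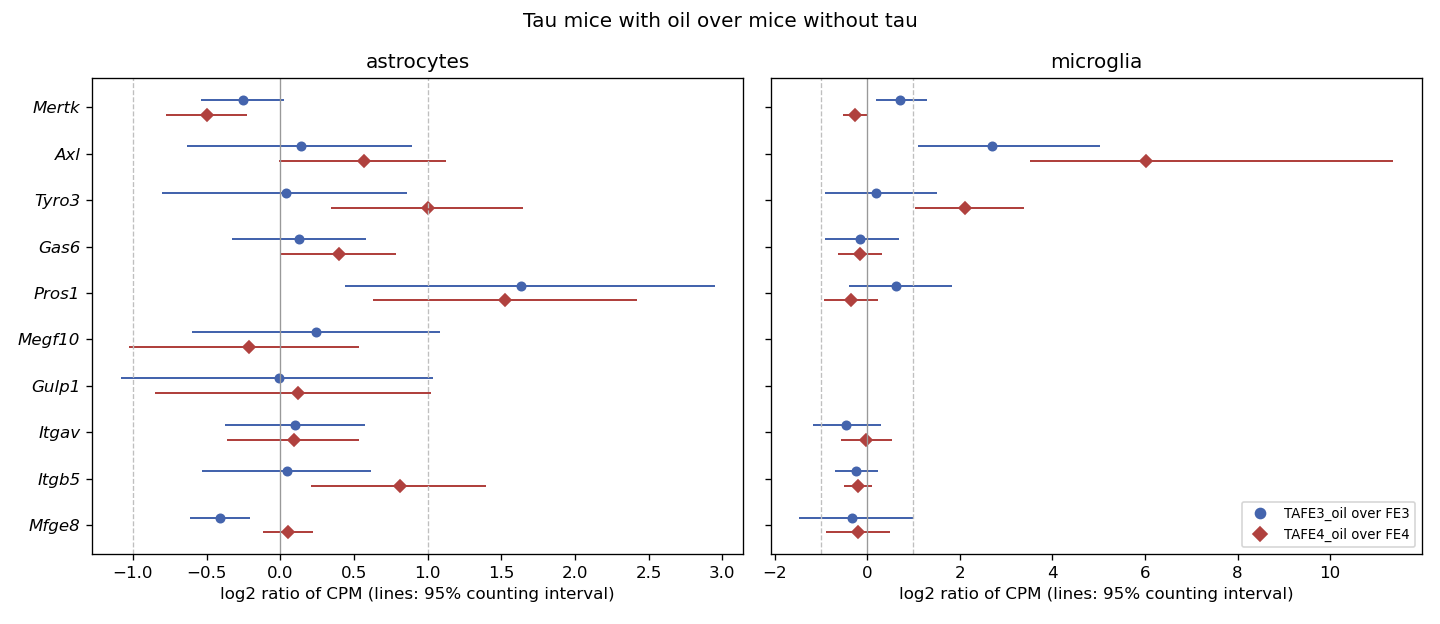
Log2 ratio of CPM, tau mice with oil over mice without tau, for each member in astrocytes and microglia (panels); the markers are the APOE3 and the APOE4 pair, bars the 95% interval of counting error, and dashed lines mark 2-fold. Axl in microglia and Pros1 in astrocytes lie above the upper line in both pairs.

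Within microglia, Axl was read in subclusters of at least 50 nuclei a library. The subcluster led by P2ry12 and Tmem119, genes of homeostatic microglia, held Axl at 34.7 CPM in FE3 (2 UMIs), 2.85 in FE4 (1 UMI) and 125 in TAFE4_tam (11 UMIs). The subcluster led by the interferon-response genes Cxcl10 and Mx1 held 156, 191, 127 and 185 CPM in the 4 tau libraries. The subcluster led by Itgax, Spp1 and MHC class II genes was the highest, reaching 324 CPM in TAFE4_tam, with 241 CPM in TAFE4_oil and 212 CPM in TAFE3_tam. In the subcluster led by Gpnmb, Spp1 and Lyz2, Axl was at 127 in TAFE4_oil and 235 in TAFE4_tam. A subcluster led by the metallothionein gene Mt1 and the astrocyte gene Gfap held 119.7, 103, 147 and 126 CPM in the 4 tau libraries. Libraries without tau reached 50 nuclei only in the P2ry12-led subcluster, so the tau comparison could not be made within the others.

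Mertk did not follow Axl across these subclusters. It was at 399.6, 471 and 612 CPM in the P2ry12-led nuclei of FE3, FE4 and TAFE4_tam and at 396 to 549.9 CPM in the interferon-led ones. The MHC class II-led subcluster held 296 to 534 CPM of Mertk and the Mt1-led one 315 to 400.4 CPM. The Gpnmb-led one held 299.8 CPM in TAFE4_oil and 252 CPM in TAFE4_tam. Subclusters come from the same nuclei and have no test here.

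**Figure D5:**
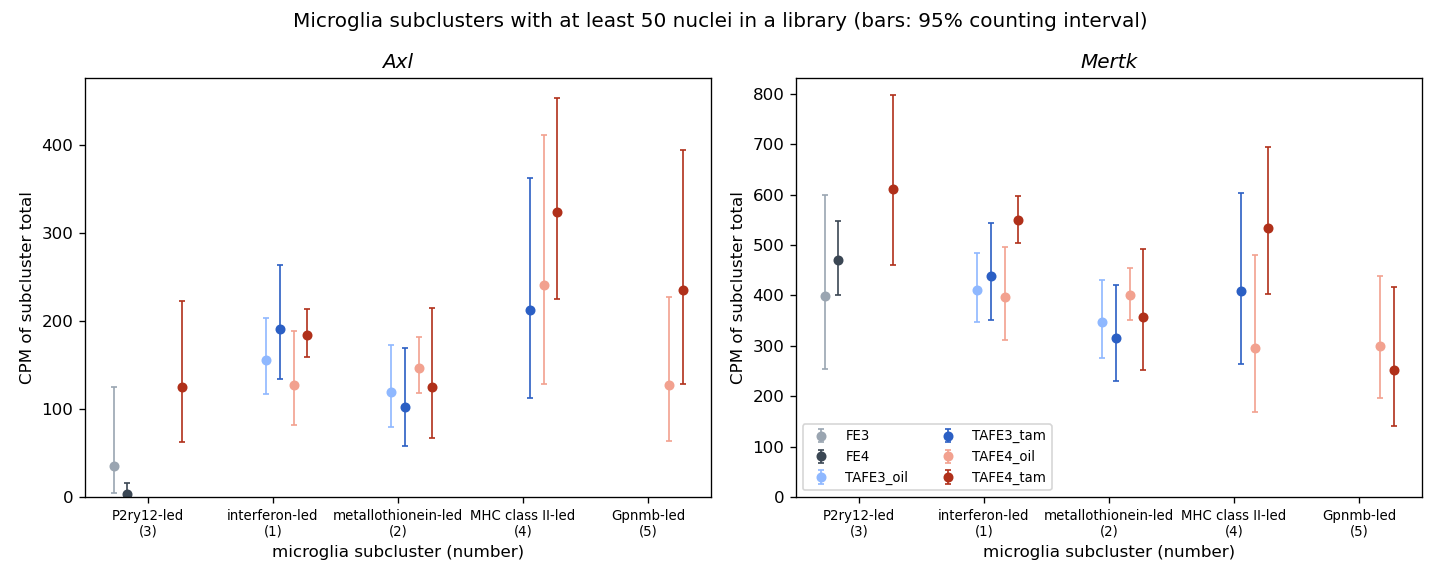
Axl and Mertk in CPM (vertical axes, linear, starting at 0) in microglial subclusters with at least 50 nuclei in a library (horizontal axis). The neuron-led subcluster is left out. Each point is a library and bars are the 95% interval of counting error. Axl has its highest values in the MHC class II-led subcluster, at 212 to 324 CPM, where Mertk is at 296 to 534 CPM. Its intervals there overlap those of other subclusters.

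Astrocytic subclusters differed in the same receptors and ligands. The subcluster led by Myoc, Vim, Gfap and Serpina3n, genes of reactive astrocytes, reached 50 nuclei in the 4 tau libraries (70 to 102 nuclei) and held 7 and 18 nuclei in FE3 and FE4. Its Mertk was at 118, 126, 132 and 235 CPM, below the 275 to 459.6 CPM of the subcluster led by Etnppl and Slc7a10 and the 241 to 350.0 CPM of that led by Hsd11b1 and Hopx. Mfge8 was at 276 to 571 CPM there, against 448 to 841 and 799 to 1024 CPM. Gas6 was at 136 to 167 CPM, above the 57.4 to 109 CPM of the Etnppl-led subcluster and overlapping the 91.2 to 153 CPM of the Hsd11b1-led one. Pros1 was at 30.2 to 48.9 CPM in the Gfap-led subcluster, from 5 to 12 UMIs a library, at 6.62 to 29.2 CPM in the Etnppl-led one and at 3.65 to 55.1 CPM in the Hsd11b1-led one, so it did not set the Gfap-led subcluster apart from both.

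Tamoxifen was set against oil within the tau mice, TAFE3_tam over TAFE3_oil and TAFE4_tam over TAFE4_oil. No member reached 2-fold in the same direction in both pairs, as 0 of 10 in astrocytes and 0 of 8 in microglia were higher and none lower. Of all genes in astrocytes 0.137% were higher and 0.262% lower, and in microglia 0.118% and 0.355%. Mertk in astrocytes went from 253 to 196 CPM in the APOE3 pair (−0.37 [−0.70, −0.04]) and from 221 to 320.2 CPM in the APOE4 pair (0.54 [0.20, 0.87]). In microglia Mertk was at 0.01 in the APOE3 pair and 0.54 [0.36, 0.72] in the APOE4 pair. Axl in microglia was at 0.36 and 0.40 [0.11, 0.69], and in astrocytes at 0.78 [0.07, 1.5] and −0.00.

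The ligand genes under tamoxifen also differed by pair. Mfge8 in astrocytes was at 0.67 [0.47, 0.87] in the APOE3 pair and 0.06 in the APOE4 pair. In microglia, where Mfge8 did not exceed the astrocyte background, it was at 0.91 [0.22, 1.61] and −0.62 [−1.17, −0.07]. Pros1 in microglia was at 0.20 and 0.63, and Itgb5 at 0.38 [0.09, 0.66] and 0.10. Microglial Tyro3, which did not exceed the neuronal background, was at 0.32 and −1.23 [−1.78, −0.69]. Whether the APOE3 and APOE4 pairs differ was not tested, since each pair is 2 libraries.

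APOE4 was set against APOE3 in FE4 over FE3 and in TAFE4_oil over TAFE3_oil. In astrocytes 0 of 10 members were past the fold in both pairs in either direction, beside 0.079% of all genes higher and 0.0226% lower. In microglia 0 of 6 were (Axl, Tyro3, Megf10 and Gulp1 had under 20 UMIs in a pair), beside 0.0526% higher and 0.0877% lower. Mertk in microglia was higher in FE4 than in FE3 (0.97 [0.44, 1.54]) and level between the oil libraries (−0.01). The part of the neuron-led microglial nuclei of FE3 in the former ratio was not tested. Itgb5 in astrocytes was lower in FE4 (−0.86 [−1.38, −0.34]) and at −0.10 between the oil libraries. Mfge8 in astrocytes was at −0.00 in the former pair and 0.46 [0.25, 0.67] in the latter. The part of the neuron-led astrocyte nuclei in these Itgb5 and Mfge8 ratios was not tested. Between the tamoxifen libraries, TAFE4_tam over TAFE3_tam, Mertk was at 0.71 [0.36, 1.05] in astrocytes and 0.52 in microglia.

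Other genes of engulfment were taken from lists chosen by function. Among all 9311 genes tested between the classes in edgeR, 23.3% were called higher in astrocytes and 24.2% in microglia. No list was tested against these shares. Of 11 scavenger and phagocytic receptors tested between the classes in edgeR, 1 was called higher in astrocytes and 9 in microglia. The astrocyte gene was the integrin subunit Itgb8 (log2 3.06). The largest microglial differences were the scavenger receptor Stab1 (−6.18) and the complement receptor subunit Itgam (−5.04). Itgam and Trem2 of this list are markers from which microglia were named, so the direction of their calls was fixed beforehand. The list's median was −4.42, against −0.02 over all genes. Of 16 engulfment signalling genes 4 were called in astrocytes, led by the exchange factors Vav3 (2.58) and Dock1 (1.42). In microglia 7 were called, led by the Rac exchange factor Dock2 (−6.87) and the kinase Syk (−5.98). The lists thus held exchange factors on both sides.

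The remaining lists stand beside the same shares of all genes, 23.3% called in astrocytes and 24.2% in microglia. Of 7 opsonins and bridging proteins, 2 were called in astrocytes, the complement gene C4b (2.62) and the phosphatidylserine-binding annexin Anxa5 (0.94). The 5 called in microglia were led by C1qc (−4.72) and C1qa (−4.36), subunits of the complement initiator C1q. C1qa, C1qb and C1qc are markers from which microglia were named, so the direction of their calls was fixed beforehand. Among 9 genes of phosphatidylserine exposure and its checkpoints, the flippase Atp11a was called in astrocytes (1.2), and 4 were called in microglia, among them Atp8a2 (−3.32) and the receptor Sirpa (−0.96). Of 7 genes of shedding, feedback and the vitamin K cycle, Socs3 (0.82) and Twf1 (0.54) were called in astrocytes, and Adam17, a protease that sheds MERTK and AXL, in microglia (−1.61). Of 4 nuclear receptors, Nr3c1 was called in astrocytes (0.55) and Ppard (−1.35) and Nr1h2 (−0.57) in microglia.

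In the tau pairs, the listed genes past the fold in microglia were Itgax, 1 of 11 receptors with enough UMIs, and C4b, 1 of 7 opsonins. Over all genes, 2.21% in microglia and 2.18% in astrocytes were at least 2-fold higher in both pairs. Itgax, an integrin subunit of activated microglia, was at 99.0 CPM in TAFE3_oil against 12.6 in FE3 and at 121 in TAFE4_oil against 4.26 in FE4, with 2 UMIs in each library without tau. C4b was at 113 CPM against 0 in the APOE3 pair and at 134 against 19.2 in the APOE4 pair. In astrocytes C4b (log2 1.54 and 1.42), Anxa5 (1.57 and 2.0), Abca1, a lipid exporter (1.18 and 1.29), and Rac1, a small GTPase of engulfment (1.01 and 1.09), were past the fold. So were C1qa (2.42 and 3.13), C1qb (1.76 and 3.00), C1qc (1.87 and 2.09), Trem2 (1.94 and 2.18) and Tyrobp (2.05 and 2.24), which made 5 of 7 opsonins, 3 of 12 signalling genes and 1 of 4 receptors in all. C1qa, C1qb, C1qc and Trem2 are among the 15 microglia markers whose sum in astrocytes is given above, and the part of that RNA in these values was not tested. No listed gene was past the fold lower in both pairs of tau or in either direction under tamoxifen. Over all genes, 0.979% in microglia and 0.544% in astrocytes were lower in the tau pairs. Under tamoxifen, 0.118% and 0.137% of all genes were higher and 0.355% and 0.262% lower, in the same order of classes.

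The genes with the most similar pattern were found by Pearson's r of log2(CPM + 1) over 85 sums of a class in a library, among 13016 genes. The sums share libraries, depth and RNA of other cells, so r is a description. Itgb5 was most like the lysosomal protease Ctsz (r = 0.89), and Mfge8 most like Ppap2b (0.89), with the astrocyte gene Slc1a3 also among its 3 nearest. Mertk was most like Sat1 (0.89), and Axl most like Msn (0.88), Cd63 (0.87) and Tcn2 (0.86). Pros1 was most like Nupr1 (0.83), Megf10 most like Lrp4 (0.80), Gulp1 most like Six5 (0.82) and Itgav most like Cd9 (0.77). Tyro3 (Pex5l, 0.73) and Gas6 (Ap1s2, 0.70) had the weakest nearest neighbours of the 10 genes.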

How the data were processed

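The authors deposited a filtered matrix of raw UMI counts per gene and nucleus for each of 6 libraries, written by Cell Ranger 3.1.0 per the file headers, and the submitters' processing notes name Cell Ranger, Seurat and mm10. Nuclei came from frozen tissue, and reads were of transcript ends, so UMI counts are not per length and levels are not compared between genes. The sources used here do not say whether intronic reads were counted.

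Nuclei with at least 500 UMIs, 300 genes and at most 5% mitochondrial UMIs were kept (1568 to 4729 a library exceeded that limit), and scrublet scores removed the top 11.8% to 14.5% as doublets. In scanpy 1.11.5, 2000 variable genes without the members, 30 principal components, 15 neighbours and Leiden resolution 1 gave 31 clusters, named from markers. Clusters with a median doublet score over 0.2 or markers of several lineages stayed unnamed. Sums of counts per class in each library were tested with edgeR 4.0.16 (R 4.3.3). On simulated counts for 9311 genes of the comparison of astrocytes and microglia, 100% of genes changed by log2 2 and 60.8% of those changed by log2 1 were recovered. The simulation gave all genes the same dispersion and a class difference that was equal in every library. It therefore does not give the recovery for genes whose difference varies between conditions. Intervals are exact conditional binomial ones at 95%. To count genes past the fold, every count under 3 UMIs was set to 3. Printed ratios used counts as they were, except that a count of 0 was set to 3. DESeq2 1.42.0 was an alternative.

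Named were all 10 members, the listed genes with the largest called differences in each direction (up to 2) or past 2-fold in both tau or tamoxifen pairs, and up to 3 genes most similar to a member, of which a few are not reported here. The members and lists were chosen with earlier results of these data known, and the doublet-score limits for clusters were set after seeing the data. Gene positions are GENCODE vM21, GRCm38.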

Additional observations from a re-analysis of the deposited data

Results flagged for a closer look

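For 3 results the APOE3 and APOE4 pairs went opposite ways, each with a counting interval that leaves out 0. The difference between the pairs was not tested. Microglial Mertk had a log2 ratio of 0.71 in TAFE3_oil over FE3 and −0.26 in TAFE4_oil over FE4. Of the 159222 microglial UMIs in FE3, 72284 came from a subcluster led by neuronal genes. Their part in the ratio of 0.71 was not tested. Astrocytic Mertk was at −0.37 in TAFE3_tam over TAFE3_oil and 0.54 in TAFE4_tam over TAFE4_oil. Microglial Mfge8, a level within the astrocyte background, was at 0.91 and −0.62 in these tamoxifen pairs.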

How the results depend on the processing

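The call rests on few UMIs in several places: microglial Axl without tau on 1 and 3 UMIs, microglial Gulp1 and Megf10 on 0 to 8, and astrocytic Pros1 on 9 to 24 a library. Over the settings run for astrocytes against microglia, 5 to 7 of the 10 members were called, and leaving out each library in turn gave 5 to 7 members and 3976 to 4475 genes. The genes called numbered 3337 in DESeq2's Wald test, 3887 with no library block, 3712 with at least 1000 UMIs, 4883 with doublets kept, 5708 with no filter and 6510 with no mitochondrial limit. Mertk, Axl and Gas6 changed call under settings named beside them, and Gulp1, Mfge8, Megf10, Itgb5 and Pros1 stayed called in each. For tau mice with oil against mice without tau, the count in astrocytes was 0 with at most 1% mitochondrial UMIs (1 otherwise), where FE3 kept 11 astrocytes. The count in microglia was 3 with no UMI minimum, Axl higher and Megf10 and Gulp1 lower. Megf10 and Gulp1 held 5 UMIs or fewer a library, and setting counts under 3 to 3 fixed their size and direction. Leaving out the subclusters led by genes of other cell types, an alternative chosen after seeing the data, called 7 members. No called result reversed, but the uncalled Itgav difference of −0.03 turned positive without FE3 (0.02), without TAFE3_tam (0.05), with at least 1000 UMIs (0.09), with no mitochondrial limit (0.11) and with doublets kept (0.07). No paired analysis was possible because each group holds 1 library; this concerns comparisons between groups, while astrocytes and microglia were paired by the library block, without which Mertk lost its call (edgeR adjusted p = 0.199).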
